A study of Mus musculus with 8 samples.

Results

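The BCL2 family sets whether a cell commits to the mitochondrial pathway of apoptosis, and its transcripts were measured here in sorted mouse Paneth cells. The 10 members described were those whose Ensembl ID in the table of counts mapped, through the GENCODE mouse annotation, to Bcl2, Bcl2l1, Mcl1, Bax, Bak1, Bbc3, Pmaip1, Bid, Bcl2l11 and Bad. They were 10 of 55414 IDs in the table, and all 10 were among the 11929 genes with enough counts to be tested. Paneth cells sit at the bottom of crypts in the small intestine and release lysozyme and alpha-defensins from granules. The cells had been isolated by FACS from 4 mice labelled DT TG, described by the labels as diphtheria toxin (TG), and from 4 wild type controls (WT). The title of the series places the experiment after depletion of mature Paneth cells, so that TG values are those of the cells that could still be recovered. Each library was 1 bulk RNA sample made with a stranded kit that selects mRNA, and the study's mice were C57BL/6J. Diphtheria toxin stops protein synthesis by inactivating an elongation factor of the ribosome. The sources used here do not give the construct behind the TG label, how the toxin was delivered or the age of the mice. Toxin transcripts were not analysed.

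Members of the family fall into 3 roles. Pro-survival proteins (BCL2, BCL-XL from Bcl2l1, and MCL1) hold back the effectors BAX and BAK, which open pores in the outer mitochondrial membrane, release cytochrome c and so start the caspases. BH3-only proteins (PUMA from Bbc3, NOXA from Pmaip1, BID, BIM from Bcl2l11, and BAD) carry stress signals by binding the pro-survival proteins, and some of them also activate the effectors directly. MCL1 protein is known to be short-lived, so that its amount follows ongoing translation closely, and intestinal crypts depend on it for survival. RNA-seq measures transcripts and not these proteins.

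Sequence upstream of a start site is shown for Bcl2, the member with the smallest p, and for Bbc3 and Bcl2l11, the members with the highest fold changes. Each stretch is the part of a RefSeq window (GRCm38.p6, 250 bases before an annotated start) that lies outside the exons of the same gene. Positions are exact matches to GRCm39, sequences run 5′ to 3′ on the strand of the gene, and capitals mark matches to the motifs searched, on either strand. The Bbc3 stretch lies within the annotated gene, before a start downstream of its first exons.
Bcl2, chr1:106642061-106642270, minus strand: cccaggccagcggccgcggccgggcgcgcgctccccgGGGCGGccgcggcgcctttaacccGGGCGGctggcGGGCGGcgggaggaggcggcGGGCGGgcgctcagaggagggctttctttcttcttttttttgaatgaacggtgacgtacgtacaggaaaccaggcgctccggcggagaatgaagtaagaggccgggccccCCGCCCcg
Bbc3, chr7:16043936-16044070, plus strand: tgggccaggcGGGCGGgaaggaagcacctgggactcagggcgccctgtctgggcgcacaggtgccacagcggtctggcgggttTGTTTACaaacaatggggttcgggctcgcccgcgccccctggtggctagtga
Bcl2l11, chr2:127967708-127967957, plus strand: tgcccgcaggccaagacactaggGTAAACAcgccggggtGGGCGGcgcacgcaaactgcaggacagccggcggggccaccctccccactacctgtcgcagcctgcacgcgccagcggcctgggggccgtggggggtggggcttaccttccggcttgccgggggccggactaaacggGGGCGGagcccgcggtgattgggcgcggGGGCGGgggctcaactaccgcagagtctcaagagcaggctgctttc
Motifs were searched on both strands in whole windows of 250 bases. They were TGTTTAC for FOXO factors, CACGTG for MYC-type factors, TTCNNNGAA for STAT factors and GGGCGG for the GC box, and the searches did not exclude overlapping matches. RefSeq windows were at hand for 9 members, 15 windows in all, and Pmaip1 is only named. TGTTTAC was in 1 window of Bbc3, 167 bases before that start, and in 1 window of Bcl2l11, 227 bases before its start. Of all 32851 windows, 3.17% held it. CACGTG was in the window of Bax and in another window of Bbc3, against 6.02% of all windows. TTCNNNGAA was in 0 of the 15 windows, against 7.02%. GGGCGG was in 10 of the 15 windows, from 7 members, against 32.7% of all windows. These matches describe letters only and do not show binding.

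Total counts ranged from 13107397 to 16218434 per library. Y-linked genes had 0 counts in replicates 1 and 2 of both groups and 897 to 1564 counts in replicates 3 and 4, so that this split was balanced over the groups. Of 9 Paneth cell markers, Lyz1 stood at 166391 CPM (counts per 1e6 counts) in WT and 175230 in TG, with a log2 fold change (TG over WT) of 0.07, and 3 markers (Mmp7, Ang4 and Mptx2) were lower in TG. Log2 fold changes were negative for 7 of the 9 and positive for 2, with a median of -0.22. The summed Paneth markers were at 354088 to 534078 CPM in WT and 373267 to 458761 in TG. The enterocyte markers moved with the groups. All 11 had positive log2 fold changes with a median of 1.75, edgeR called 6, DESeq2 9 and limma voom 3, and their sum was 76.5 to 132.2 CPM in WT and 150.9 to 295.5 in TG. Their defining marker Alpi had means of 0.799 CPM in WT and 4.75 in TG. Of the goblet, proliferation and tuft lists, with 8, 7 and 4 genes tested, 0 genes were called by edgeR, DESeq2 or limma voom, with 1 goblet gene at an unadjusted p below 0.05 by edgeR. Of 8 immune markers only Lyz2 was tested, and it was not called. The sums of these 4 lists overlapped between the groups, and Muc2, Mki67, Dclk1 and Ptprc stood at 3024, 65.8, 10.4 and 0.321 CPM in WT. Of the stem markers, with Lgr5 at 76.3 CPM in WT, Axin2 was higher and Smoc2 lower, and of the enteroendocrine markers, with Chga at 3.31 CPM in WT, Tac1 was lower. In bulk RNA, fewer cells of a type and less RNA per cell cannot be told apart. The part of other cell types in the values given here for the BCL2 family was not tested.

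Of the 10 members, Bcl2 and Bak1 were lower in TG and none was higher. Bcl2, a pro-survival gene, fell to 0.675 times its WT level, and Bak1, an effector gene, to 0.763 times. With the quasi-likelihood test of edgeR and Benjamini-Hochberg adjustment over 11929 genes, 2 members were called lower against 9.65% of all genes tested (1151), and 0 were called higher against 8.26% (985). In either direction 17.9% of genes were called, so that 2 of 10 members was close to the share of all genes. DESeq2 and limma voom each called 2 members as well, and 0 higher. Under scaling by total counts alone, the median of all log2 fold changes went from 0.01 to 0.12 and the higher share of calls from 46.1% to 75.0%, and 0 members were then called. At an unadjusted p below 0.05 edgeR had 4 members, with Bbc3 and Bcl2l11 on the higher side, against 33.1% of all genes tested. Log2 fold changes were positive for 6 members and negative for 4, with a median of 0.05, against 0.01 over all genes tested. CPM did not overlap between the groups for 3 members, with Bcl2 below and Bbc3 and Bid above. The shares of all genes tested were 22% in either direction, 10% with TG above WT and 12% with TG below WT.

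**Figure D1:**
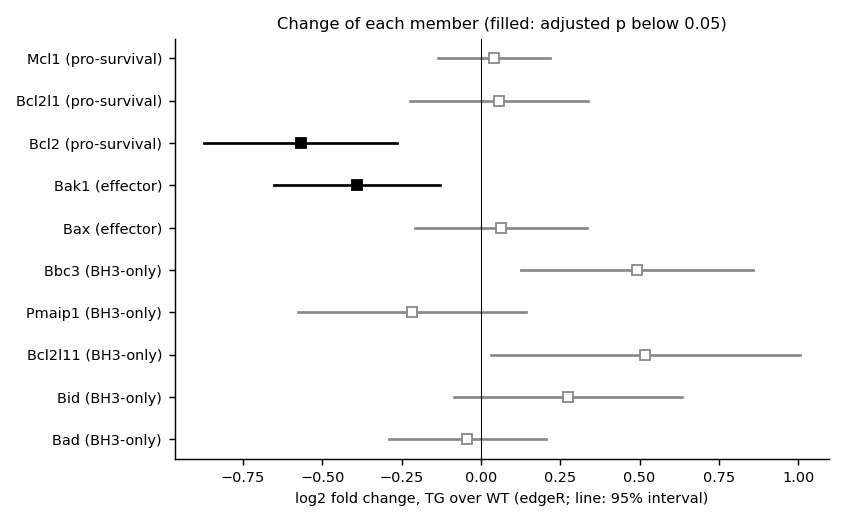
Log2 fold change (TG over WT) of each member with its 95% confidence interval from edgeR, 4 libraries per group. Filled squares mark Bcl2 and Bak1, whose adjusted p was below 0.05, and the intervals of Bbc3 and Bcl2l11 also lie to the right of 0.

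To compare members with each other, CPM were divided by the length of the union of each gene's exons in kilobases. Mcl1 was the most abundant member in every library, at 20.9 ± 1.61 CPM per kb in WT and 21.5 ± 0.772 in TG (SD, n = 4 each). Bak1 came next with 13.4 ± 2.03 in WT and 10.2 ± 1.44 in TG, and Bax followed with 5.96 ± 0.434 and 6.22 ± 0.789. These 3 genes kept the same order in all 8 libraries, with no overlap of neighbours within a group. Pmaip1 (3.18 in WT, 2.72 in TG), Bad (3.03 and 2.94) and Bcl2l1 (1.97 and 2.04) formed the middle of the scale in CPM per kb. The ranges of Pmaip1 and Bad overlapped in both groups at this length. Bid (0.416 in WT, 0.504 in TG) and Bcl2l11 (0.313 and 0.449) were lowest, and their ranges overlapped in both groups at this length.

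The places of Bcl2 and Bbc3 in that order were exchanged between the groups. In WT, Bcl2 stood at 1.33 ± 0.181 CPM per kb and Bbc3 at 0.998 ± 0.185 (SD, n = 4 each), with Bcl2 higher within each of the 4 libraries although the ranges overlapped. In TG, Bbc3 stood at 1.41 ± 0.140 and Bcl2 at 0.896 ± 0.121, with Bbc3 higher in 4 of 4 libraries and no overlap. Division by the longest coding transcript instead of the union of exons raised Bbc3 to 1.78 CPM per kb in WT, next to 1.69 for Bcl2, so that the exchange depended on the length used. With that length Bad (6.12 CPM per kb in WT, 5.94 in TG) stood above Pmaip1 (3.18 and 2.72) with no overlap in either group, and Bid (0.894) stood above Bcl2l11 (0.618) in all 4 WT libraries with no overlap. Bax then also reached 10.5 CPM per kb in TG, level with Bak1 at 10.3. By mean CPM without regard to length, Mcl1 lay above 88.7% of the genes tested, Bak1 above 67.3% and Bcl2l11 above 19.3%.

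**Figure D2:**
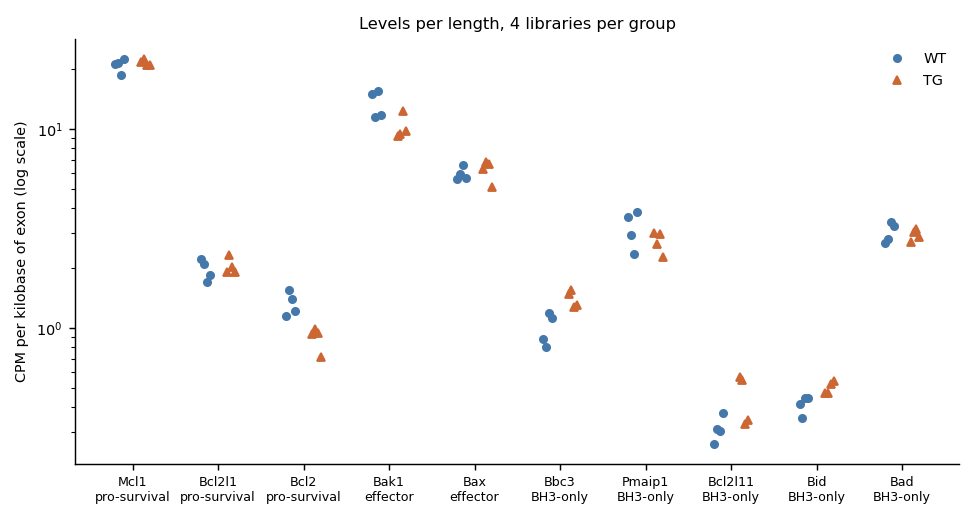
CPM per kilobase of exon (log scale) of each member, with 1 point per library, circles for WT and triangles for TG. Mcl1 and Bak1 lie above the other members in both groups, and Bcl2 and Bbc3 exchange places between WT and TG.

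Bcl2 (chromosome 1, 106465908 to 106642060, minus strand, GRCm39) encodes the founding pro-survival protein of the family. Its TMM-scaled CPM, which use library sizes corrected with edgeR's trimmed mean of M values, were 10.6, 14.3, 12.9 and 11.2 in WT replicates 1 to 4. In TG replicates 1 to 4 they were 8.63, 9.08, 8.69 and 6.61. All 4 TG libraries were below all 4 WT libraries, and TG replicate 4 was the lowest. The means were 12.2 ± 1.67 in WT and 8.25 ± 1.11 in TG (SD, n = 4 each), from 133 to 205 and 87 to 154 counts per library. The log2 fold change was -0.57 ± 0.14 (SE), with a 95% confidence interval from -0.87 to -0.26 and an adjusted p of 0.0154 by edgeR. The fall of Bcl2 was also called when any 1 of the 8 libraries was left out, with adjusted p of 0.0115 to 0.0413 by edgeR. It was not called when libraries were scaled by total counts only, where the adjusted p was 0.156.

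Mcl1 (chromosome 3, 95566026 to 95570487, plus strand), the pro-survival gene with the highest level, was not called. It had 74.1, 74.4, 65.0 and 78.4 CPM in WT replicates 1 to 4 and 75.8, 78.5, 72.7 and 73.1 in TG. The groups overlapped, and WT replicate 3 was the lowest library. The change on the log2 scale was 0.04 ± 0.08 (SE), in an interval from -0.14 to 0.22 and an adjusted p of 0.768 by edgeR. With 927 to 1288 counts per library, Mcl1 had the narrowest interval of the 10 members.

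Bcl2l1 (chromosome 2, 152622582 to 152673655, minus strand), which encodes BCL-XL, had 11.4, 10.7, 8.77 and 9.45 CPM in WT. In TG it had 9.82, 12.0, 10.4 and 9.81. The groups overlapped with no library far from the rest, and the log2 fold change was 0.06 ± 0.13 (SE, interval -0.22 to 0.34, adjusted p = 0.794 by edgeR). Of the 3 pro-survival members, Bcl2 was thus the only one called. The summed level of the 3 was 24.2 ± 1.68 CPM per kb in WT and 24.4 ± 1.01 in TG (SD, n = 4 each). Mcl1 made up 86.4 ± 1.17% of that sum in WT and 88.0 ± 0.777% in TG. Bcl2l2, a further pro-survival gene described below, is not in this sum, so these shares hold for the 3 members only.

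Bak1 (chromosome 17, 27238784 to 27247983, minus strand) encodes BAK, the effector that resides in the outer mitochondrial membrane. It had 35.8, 27.7, 37.1 and 28.4 CPM in WT replicates 1 to 4, and 22.2, 22.8, 29.7 and 23.5 in TG. TG replicates 1, 2 and 4 were below every WT library, and TG replicate 3 lay above WT replicates 2 and 4, so that the groups overlapped. The mean was 32.2 ± 4.89 in WT and 24.5 ± 3.47 in TG (SD, n = 4 each), with 309 to 554 counts per library. The log2 fold change was -0.39 ± 0.12 (SE, interval -0.65 to -0.13), with an adjusted p of 0.0408 by edgeR. The call on Bak1 was kept in 3 of the 8 fits that left out a library, and the adjusted p ranged from 0.0174 to 0.135 over these fits. It was lost without TG replicate 1 (0.135), TG replicate 2 (0.118), TG replicate 4 (0.0828), WT replicate 1 (0.0878) or WT replicate 3 (0.104). With total counts only the adjusted p was 0.299.

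Bax (chromosome 7, 45111015 to 45116325, minus strand), the effector that moves from the cytosol to mitochondria on activation, had 10.4, 11.1, 12.2 and 10.6 CPM in WT. In TG it had 11.7, 12.7, 12.4 and 9.43, so that TG held both the highest and the lowest library. The log2 fold change was 0.06 ± 0.13 (SE, interval -0.21 to 0.33, adjusted p = 0.762 by edgeR). As a description, the share of Bak1 in the summed level per length of both effectors was 65.9 to 72.7% in WT and 58.1 to 65.8% in TG. The sum itself was 19.3 ± 2.25 CPM per kb in WT and 16.4 ± 1.82 in TG.

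The ratio of Bax to Bcl2 was also taken within each library from levels per length. It was 4.85, 3.85, 4.68 and 4.70 in WT replicates 1 to 4 and 6.73, 6.93, 7.06 and 7.07 in TG. The TG ratios lay within a narrow range and all 4 were above the WT ratios. The means were 4.52 ± 0.454 and 6.95 ± 0.161 (SD, n = 4 each). The ratio was formed after both genes had been seen and carries no test, and it holds the fall of Bcl2 already described.

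**Figure D3:**
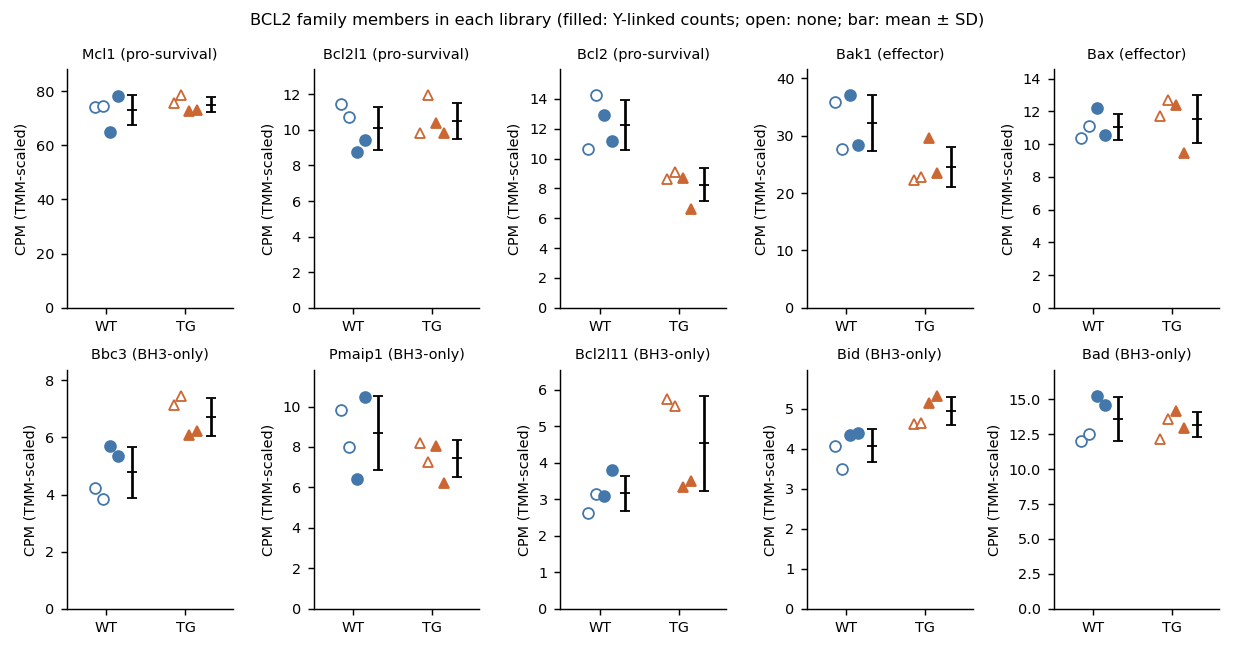
TMM-scaled CPM of the 10 members in each library, with circles for WT and triangles for TG, filled where the library had Y-linked counts and open where it had none, and bars for mean ± SD. Every TG point of Bcl2 lies below the WT points, those of Bbc3 and Bid lie above, and for Bcl2l11 the 2 open TG points stand apart from the other 6.

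Bbc3 (chromosome 7, 16042318 to 16052130, plus strand) encodes PUMA, a BH3-only protein induced by p53 and by FOXO factors. It had 4.24, 3.83, 5.69 and 5.36 CPM in WT replicates 1 to 4, and 7.13, 7.46, 6.10 and 6.23 in TG. All 4 TG libraries were above all 4 WT libraries, with WT replicate 3 closest to the TG range. The means were 4.78 ± 0.887 in WT and 6.73 ± 0.669 in TG (SD, n = 4 each), from 53 to 114 counts per library. The log2 fold change was 0.49 ± 0.17 (SE, interval 0.13 to 0.86), with an unadjusted p of 0.0119 and an adjusted p of 0.0597 by edgeR, so that it was not called. Of the 8 fits that left out a library, only 1 called Bbc3, that without WT replicate 3 (adjusted p of 0.0421 by edgeR). In the others the adjusted p was 0.0747 to 0.162. With all libraries, DESeq2 gave 0.0515 and limma voom 0.0573.

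Bcl2l11 (chromosome 2, 127967958 to 128004476, plus strand) encodes BIM, which binds all pro-survival members and is a target of FOXO3. It had 2.64, 3.13, 3.08 and 3.80 CPM in WT replicates 1 to 4, and 5.76, 5.56, 3.33 and 3.50 in TG. TG replicates 1 and 2 were the highest of all libraries, while TG replicates 3 and 4 lay within the WT range. The log2 fold change was 0.52 ± 0.23 (SE, interval 0.03 to 1.00), with an adjusted p of 0.129 by edgeR. By its mean, Bcl2l11 was the least abundant member in both groups, with 33 to 92 counts per library. In TG replicates 1 and 2 it stood above Bid. Its coefficient of variation in TG was 28.7%, against 12.0% from counting alone, and in WT it was 15.1% against 15.1%.

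Bid (chromosome 6, 120862525 to 120894171, minus strand), the link from death receptors and caspase-8 to mitochondria, had 4.08, 3.48, 4.35 and 4.39 CPM in WT. In TG it had 4.63, 4.64, 5.14 and 5.32, so that every TG library was above every WT library by a small margin. The log2 fold change was 0.28 ± 0.17 (SE, interval -0.08 to 0.63, adjusted p = 0.269 by edgeR) and was not called. Exons of Bid and of Bcl2l13 on the other strand share 3059 bases, 31.2% of the exon length of Bid. Bcl2l13 had 4309 counts over the 8 libraries against 526 for Bid, and a log2 fold change of -0.10. The sources used here do not say whether counting used strand, so the values of Bid are uncertain.

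Pmaip1 on chromosome 18, which encodes NOXA, a BH3-only partner of MCL1, had 9.83, 8.01, 6.42 and 10.5 CPM in WT and 8.20, 7.25, 8.07 and 6.23 in TG. The groups overlapped and the WT libraries spread more widely than the TG libraries, with a log2 fold change of -0.22 ± 0.17 (SE, interval -0.58 to 0.14, adjusted p = 0.393 by edgeR). Bad (chromosome 19, 6918902 to 6929280, plus strand), a BH3-only gene whose protein is held inactive by AKT phosphorylation and 14-3-3 proteins, had 12.0, 12.5, 15.3 and 14.6 CPM in WT and 12.1, 13.6, 14.2 and 12.9 in TG. All TG libraries of Bad lay within the WT range, and the log2 fold change was -0.04 ± 0.12 (SE, interval -0.29 to 0.21, adjusted p = 0.83 by edgeR). Bad shares 914 exon bases with Gpr137 on the other strand, which had 1575 counts over the 8 libraries against 1562 for Bad. Bak1 shares 437 exon bases with Ggnbp1 on the other strand, which had 114 counts.

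Together the 5 BH3-only members had a summed level of 7.94 ± 0.782 CPM per kb in WT and 8.02 ± 0.446 in TG (SD, n = 4 each). Their ratio to the summed pro-survival members, which leave out Bcl2l2, was 0.329 ± 0.0317 in WT and 0.328 ± 0.0154 in TG. With the longest coding transcript the BH3-only sums were 12.6 and 13.1 CPM per kb and the ratios 0.496 and 0.513. These sums were led by Pmaip1, Bad and Mcl1. The ratio of Bbc3 to Mcl1 was 0.0482 ± 0.0116 in WT and 0.0653 ± 0.00424 in TG, with the highest WT library (0.0637) inside the TG range of 0.0611 to 0.0692. These ratios are descriptions with no test.

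The libraries with Y-linked counts and those without were compared for the change between TG and WT. For Bcl2l11 the log2 fold change was 0.96 in the 4 libraries without Y-linked counts and -0.00 in the 4 with them. For Bbc3 it was 0.85 and 0.16. The difference itself, tested as an interaction, had an unadjusted p of 0.0231 for Bcl2l11 and 0.0412 for Bbc3 and adjusted p of 0.795 and 0.858 by edgeR. Thus 0 of 10 members passed, against 0.0251% of all genes tested (3 genes), and 2 had an unadjusted p below 0.05, against 5.73% (684 genes). Bcl2 had -0.50 without Y-linked counts and -0.64 with them, and Bak1 had -0.50 and -0.29. Both kept their direction in either set, and neither was called in either, with adjusted p of 0.0753 to 0.389 by edgeR.

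**Figure D4:**
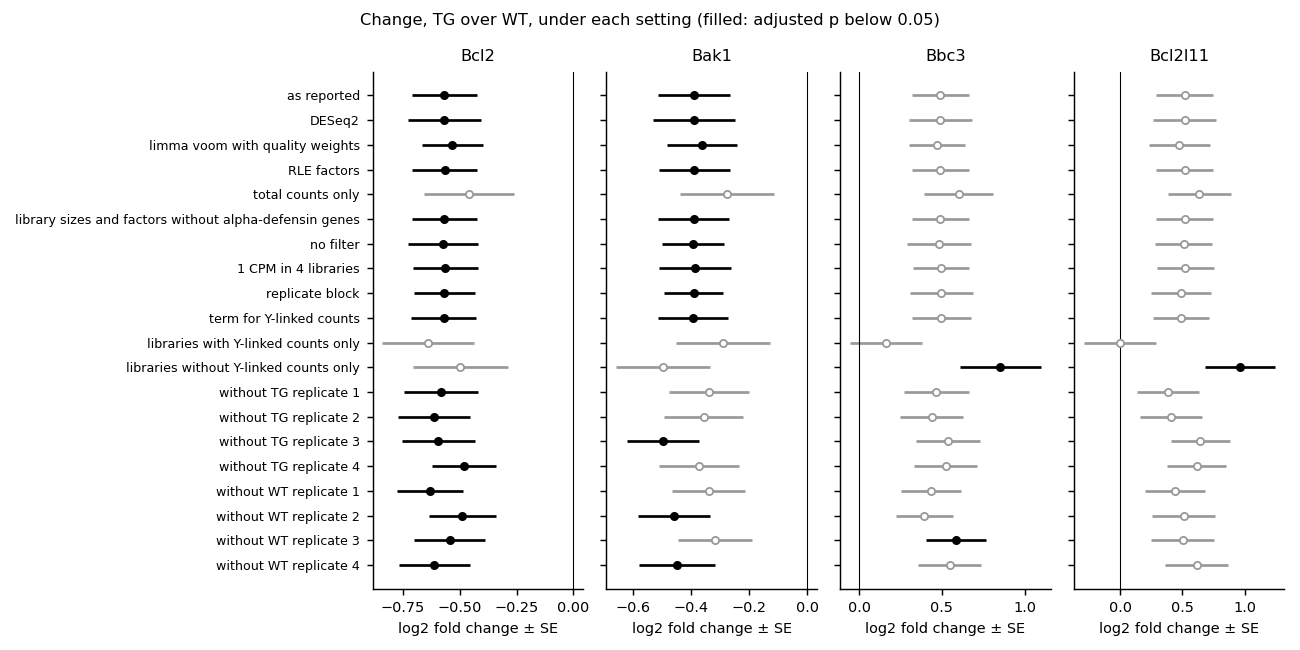
Log2 fold change (TG over WT) ± SE of Bcl2, Bak1, Bbc3 and Bcl2l11 as reported and under 19 other settings, filled where the adjusted p was below 0.05. Bcl2 was called in 17 of the 20 settings, Bak1 in 12, Bbc3 in 2 and Bcl2l11 in 1.

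Genes that act beside the family were taken from 9 lists with 82 genes in all, 75 of them tested. Of these 75, 2 were higher and 9 lower in TG, and the median log2 fold change was 0.01. Over all genes tested 17.9% were called, so that 11 of 75 list genes was below that share. Further BCL2-related genes had 9 tested and 0 called by edgeR, DESeq2 or limma voom, with Bnip3l (log2 fold change 0.21, adjusted p = 0.146 by edgeR) at an unadjusted p below 0.05. Bcl2l2, which encodes the pro-survival protein BCL-W, was the most abundant of them with 11.7 CPM per kb in WT and 11.9 in TG. It thus stood between Bak1 and Bax in WT, above Bcl2l1 and Bcl2. The 3 Bcl2a1 genes, Bcl2l10 and Hrk were at 0 in every library. For Bcl2l10 and Hrk this allows up to 0.169 to 0.240 CPM per library at 3 counts, for counting error only. The Bcl2a1 genes are near-identical copies, and the sources used here do not say how reads with several alignments were counted, so no limit is given for them.

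Downstream of the effectors, Cycs, which encodes the cytochrome c that leaves mitochondria, fell by 0.71 ± 0.12 (SE) on the log2 scale (adjusted p = 0.00191 by edgeR). It had 16.4 to 20.9 CPM in WT and 10.4 to 13.8 in TG, with no overlap. Casp9, the initiator caspase of the apoptosome, rose by 0.41 ± 0.12 (adjusted p = 0.0319 by edgeR), with 10.2 to 12.0 CPM in WT and 12.2 to 16.7 in TG. The Casp9 call was kept in 2 of 8 fits with a library left out, those without TG replicate 3 or WT replicate 3, with adjusted p up to 0.0920 in the others, and was lost with total counts only (0.0521 by edgeR). The other 8 tested genes of that list were not called, among them Parp1, its most abundant gene (-0.03). Of the 7 caspase inhibitors and their antagonists, 0 were called by edgeR, DESeq2 or limma voom and 0 had an unadjusted p below 0.05 by edgeR. Among them Xiap had a log2 fold change of 0.16 and Htra2 one of -0.16.

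Upstream of Bid, Ripk1, a kinase of the death receptor complexes, fell by 0.32 ± 0.09 (SE) on the log2 scale (adjusted p = 0.0244 by edgeR) and was the only gene of 9 called in that fit, while DESeq2 called 2. Its call was lost without TG replicate 1, TG replicate 2 or WT replicate 1 (adjusted p up to 0.0724 by edgeR) and with total counts only (0.318). Exons of Ripk1 and Serpinb6a on the other strand share 241 bases, with 4049 and 9627 counts. Tnfrsf1a, a TNF receptor and the most abundant of that list, had -0.38 and an adjusted p of 0.0658 by edgeR and 0.0437 by DESeq2, and from 0.00282 with no filter to 0.522 in the libraries with Y-linked counts over the other settings. Among 10 tested transcription factors with known targets in the family, Stat3, an activator of pro-survival genes, fell by 0.78 ± 0.13 (adjusted p = 0.00205 by edgeR). It had 121.0 to 163.7 CPM in WT and 67.1 to 101.1 in TG, with no overlap. Myc was higher (0.32 ± 0.10, adjusted p = 0.0408 by edgeR), and Foxo3, named after its value was seen because it is known to act on Bbc3 and Bcl2l11, had 0.32 ± 0.11 and an adjusted p of 0.0524 by edgeR and 0.0483 by DESeq2. Over the other settings the adjusted p of Foxo3 ranged from 0.0251 without WT replicate 4 to 0.808 in the libraries with Y-linked counts, and it was also called without TG replicate 4 (0.0403), with no filter (0.0280) and in the libraries without Y-linked counts (0.0274). The Myc call was kept in 2 of 8 fits with a library left out, those without WT replicate 1 or 2, with adjusted p up to 0.132 in the others, and was lost with total counts only (0.0701 by edgeR). Atf4, the most abundant of them, had -0.23 (adjusted p = 0.149 by edgeR), and Trp53, also named after its value was seen, had -0.04.

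Other lists held genes that act on the proteins of single members. Of 5 genes for the turnover of MCL1 protein, 0 were called by edgeR, DESeq2 or limma voom and 0 had an unadjusted p below 0.05 by edgeR, with 0.25 for the ubiquitin ligase gene Btrc and -0.01 for the deubiquitinase gene Usp9x. Of 11 kinases and binding proteins of BAD and BIM, 3 were lower, against 9.65% of all genes tested. Akt2 and Akt1, which encode kinases that phosphorylate BAD, fell by 0.52 ± 0.09 and 0.36 ± 0.10 (SE) on the log2 scale (adjusted p = 0.00224 and 0.0210 by edgeR). Dynll1, whose product binds BIM, fell by 0.59 ± 0.11 (adjusted p = 0.00292 by edgeR). The Akt1 call was lost without TG replicate 1 or 2 (adjusted p up to 0.0820 by edgeR). With total counts only, edgeR called neither Akt1 (0.196) nor Akt2 (0.0549). These 3 were among 5 of the 11 with no overlap between the groups, against 22% of all genes tested, and Mapk3, the most abundant gene of the list, had 0.01. Exons of Dynll1 and Akt1 overlap those of Coq5 and Siva1 on the other strand, with 2068 and 439 counts against 7229 and 13447.

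Of 7 mitochondrial partners, Dnm1l, the fission GTPase gene, fell by 0.25 ± 0.08 (SE) on the log2 scale and Vdac2, a porin gene whose product binds BAK, by 0.26 ± 0.09. Their adjusted p of 0.0447 and 0.0498 by edgeR were near the threshold, and each was called in 1 of 8 fits with a library left out, Vdac2 without WT replicate 2 and Dnm1l without WT replicate 1, with adjusted p up to 0.168 and 0.134 in the others. Of the 11 other settings, 3 called Vdac2 and 5 called Dnm1l, and RLE factors gave 0.0526 for Vdac2. Exons of Dnm1l and Yars2 on the other strand share 3594 bases, with 5092 and 1447 counts. Vdac1, the most abundant of that list, had 0.02. Of 7 immediate early genes, given because dissociation can induce them, Atf3 was lower (-0.75 ± 0.22, adjusted p = 0.0286 by edgeR), and Ier2, the most abundant, had 0.06. Its call was kept in 4 of 8 fits with a library left out and lost without TG replicate 1, 2 or 4 or WT replicate 3 (adjusted p up to 0.0931 by edgeR). Of all list genes called, Cycs, Stat3, Akt2 and Dynll1 kept their calls in all 8 such fits. With total counts only, Cycs, Stat3 and Dynll1 were the list genes still called.

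**Figure D5:**
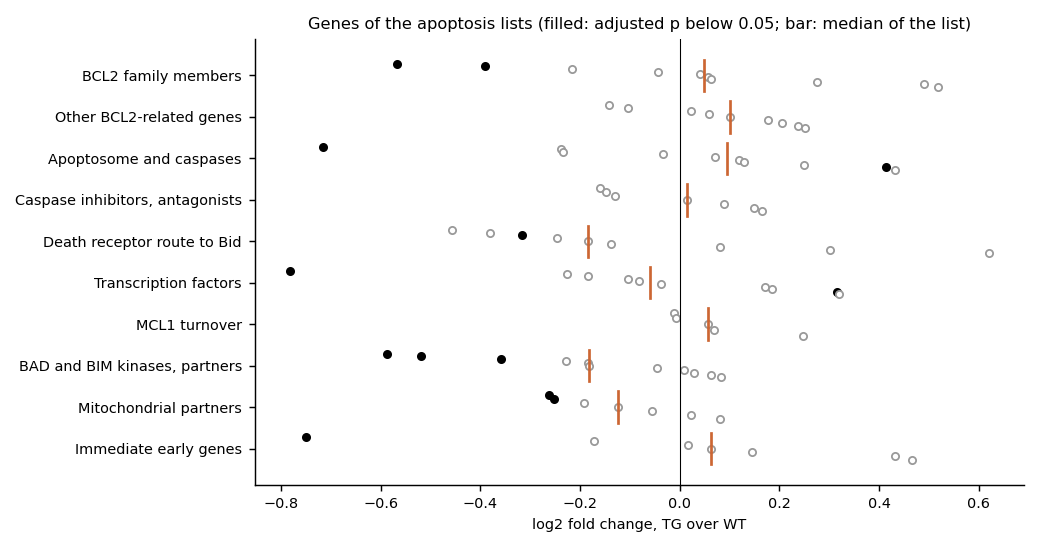
Log2 fold change (TG over WT) of each tested gene of the family and of the 9 lists, filled where the adjusted p was below 0.05, with a bar at the median of each list. Among the list genes 9 called genes lie to the left of 0 and 2 to the right (3 and 0 with total counts only), next to 1151 lower and 985 higher among all genes tested, and list medians lie between -0.18 and 0.10.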

How the data were processed

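The values used are the raw counts that the authors deposited, as whole numbers for 55414 Ensembl IDs in 8 libraries. The submitters' processing notes name FastQC 0.12.0, STAR 2.7.0a, DESeq2 and build mm39, while the sources used here name no counting tool or strand setting. Groups and replicate numbers came from the labels, and nothing states litters or sorting days. Symbols, positions and exons came from GENCODE M39 on GRCm39, which matched 54749 IDs. Counts were tested with edgeR 4.0.16 in R 4.3.3 by quasi-likelihood fits of group, TMM factors, the filterByExpr default (11929 genes left) and Benjamini-Hochberg adjustment at 0.05. Levels are TMM-scaled CPM with no prior count, and per length they were divided by the union of exons. Replicates differed by more than sampling noise (chi-square per degree of freedom of 5.20 or more). Same-numbered replicates did not deviate together in every pair and were not paired. Counts per library ranged from 33 to 92 for Bcl2l11 to 927 to 1288 for Mcl1, and the spread between libraries could exceed counting error (in WT, a coefficient of variation of 7.72% for Mcl1 against 3.15% from counting).

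Alternatives were DESeq2 1.42.0, RLE factors, limma 3.58.1 voom with quality weights, total counts only, sizes and factors without 28 alpha-defensin genes, no filter, 1 CPM in 4 libraries, a replicate block, a term for Y-linked counts, fits within each Y-linked class, and each library left out. For TG against WT, 200 of 11929 genes (11811 tested) were simulated at an absolute log2 fold change of 1. Of these 200, 82% (164) were recovered, with 21 false calls. All members changed by less than that, with Bcl2 at -0.57 furthest from 0, so this share does not apply to them. With no change simulated, 3 genes were called. All members are named. From each gene list the called genes up to 4, the smallest p where none was called, and the most abundant gene per length were named. Marker lists are given by counts, sums and their defining marker. The members and lists were chosen with earlier results of these data known. Upstream sequences came from RefSeq windows.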

Additional observations from a re-analysis of the deposited data

Results flagged for a closer look

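Within groups of 4 libraries, the lowest or highest library was set against the nearest of the others for the 10 members and the 23 list genes chosen to be named, 66 groups in all, in 2 of which a library stood apart by Dixon's ratio. Chance alone would give about 3.3 such groups. Xiap, a caspase inhibitor, stood at 27.5 CPM in TG replicate 4 and at 32.0 to 32.3 in the other TG libraries (ratio 0.934). Ier2, an immediate early gene, stood at 73.5 CPM in WT replicate 3 and at 55.5 to 57.5 in the other WT libraries (ratio 0.89). No library of a BCL2 family member stood apart in this way.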

How the results depend on the processing

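Over 19 alternatives, the calls of 2136 genes, of 2 lower members and of 2 higher and 9 lower list genes moved by over 1.5 times with fewer libraries and with scaling by total counts. Total counts only gave 262 lower genes, 0 lower members, and 0 higher and 3 lower list genes (Cycs, Dynll1 and Stat3). The libraries with Y-linked counts alone, 2 against 2, gave 113 higher and 104 lower genes, 0 members, and 0 higher and 0 lower list genes. Those without gave 500 and 638 genes, 2 higher members (Bbc3 and Bcl2l11), 0 lower members, and 1 higher and 6 lower list genes. Leaving out each library in turn gave 485 to 1045 higher and 550 to 1183 lower genes, 0 to 1 higher and 1 to 2 lower members, and 0 to 1 higher and 4 to 9 lower list genes. The cause was not tested beyond the smaller number of libraries. Vdac2 and Dnm1l, near the threshold, were also lost with no filter, the replicate block (0.0590 and 0.0640) and the term for Y-linked counts, and Vdac2 with RLE factors and the filter of 1 CPM. Log2 fold changes that changed sign all belonged to members that were not called. They were -0.027 for Bcl2l1 and 0.065 for Bad in libraries without Y-linked counts, -0.051 for Bax and -0.0036 for Bcl2l11 in those with them, and 0.068 for Bad with total counts only. With each library left out in turn, Bcl2l1 ranged from -0.010 to 0.12 (below 0 without TG replicate 2 or WT replicate 3), Mcl1 from -0.013 to 0.074 (below 0 without WT replicate 3), and Bad from -0.099 to 0.016 (above 0 without TG replicate 1 or WT replicate 3). The replicate block gave 2203 called genes with 0 higher and 2 lower members. Deviations of same-numbered replicates correlated at 0.01, 0.06, 0.28 and 0.22. TG replicates 2, 3 and 4 correlated best with the WT replicate of the same number, and TG replicate 1 with WT replicate 2. These values do not settle whether the numbers pair the samples. Bcl2l11, Bid and Bbc3 had the fewest counts, 33 to 114 per library, and the spread of Bcl2l11 in TG exceeded counting error.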
